A study of Homo sapiens with 12 samples.

Results

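The nuclear-encoded respiratory chain genes hold the instructions for the protein subunits of the mitochondrial oxidative phosphorylation complexes that are made outside the mitochondrion and imported. They were taken from the merged gene count table by symbol. The prefixes were NDUFA, NDUFB, NDUFC, NDUFS and NDUFV followed by a digit for complex I, SDHA, SDHB, SDHC and SDHD for complex II, UQCR for complex III, COX4 to COX8 for complex IV and ATP5 for complex V. Assembly factors (NDUFAF), hyphenated symbols and pseudogenes were left out, which removed 166 rows, 160 of them pseudogenes. Of the 40605 rows of the table, 87 genes remained: 38 of complex I, 4 of complex II, 9 of complex III, 17 of complex IV and 19 of complex V. After a filter on low counts, 79 of them were tested.

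Complexes I and II pass electrons from NADH and succinate to ubiquinone, complex III passes them on to cytochrome c, and complex IV gives them to oxygen. Complexes I, III and IV pump protons out of the matrix, and complex V, the ATP synthase, makes ATP as the protons return. The mitochondrial genome adds 13 subunits, so every complex other than complex II is built from both genomes. Some nuclear-encoded components, such as CYC1, have symbols outside the rule and were followed as a separate list. In many cell types the transcription factors NRF1, GABP and YY1 are known to act on genes of this kind.

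The libraries came from A549, a human lung adenocarcinoma cell line, carrying a tetracycline-inducible DYRK1B transgene. DYRK1B is a kinase that phosphorylates a tyrosine of its own activation loop, and in the mutant line that tyrosine is replaced by phenylalanine (Y273F). The 4 groups named in the sample titles were Y273F with doxycycline, Y273F control, WT with doxycycline and WT control, each with 3 libraries from separate cell populations grown and lysed side by side. All were cultured for 7 days, the doxycycline groups with 2 µg/ml. Because every line carried a transgene, doxycycline itself and induced DYRK1B cannot be told apart. Nothing in the sources used here says whether a line was 1 clone, or which 3′ end the transgene carries. The assay was QuantSeq, which reads the 3′ end of each polyadenylated RNA. Since a transcript then gives about 1 read whatever its length, counts scaled to a common library size (CPM) were compared between genes without dividing by length.

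Libraries held between 2783265 and 22028624 counts, and the 87 genes took 2.043% to 2.442% of them. Summed epithelial markers typical of A549 lay between 16079 and 25080 CPM, and alveolar type 2 markers at or below 1.79 CPM, with SFTPB at 0 in every library. Immune markers summed to at most 3.94 CPM (CD3E at 0) and endothelial markers to at most 0.586 CPM (VWF at 0). The libraries did not group by their titles. On the first principal component of the 500 most variable genes, which held 69.3% of their variance, libraries 2, 6 and 10 lay at 46.4, 42.4 and 44.9 and the other 9 libraries at -4.6 or lower. Library numbers are those of the labels: 1 to 3 are WT control, 4 to 6 WT doxycycline, 7 to 9 Y273F control and 10 to 12 Y273F doxycycline, replicates 1 to 3 in that order. Libraries 4, 8 and 12 held the highest DYRK1B, at 28.6, 12.6 and 20 CPM, against 2.63 to 7.80 CPM in the others. These are the libraries labelled WT doxycycline 1, Y273F control 2 and Y273F doxycycline 3, so the level of the induced gene went against the titles, as far as reads from the 3′ end of DYRK1B can show it. The genes are therefore described first by the titles and then by the library sets 2/6/10, 4/8/12, 3/7/11 and 1/5/9. Each set holds libraries whose numbers lie 4 apart and mixes 3 of the 4 title groups. No treatment was assigned to the sets and none of their differences was tested.

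By the titles, no respiratory chain gene passed the test for doxycycline in either line, nor between the lines. Among all 13047 genes tested with edgeR's quasi-likelihood test, 0 (0%) passed a Benjamini-Hochberg adjusted p of 0.05 in each of the 4 comparisons. For doxycycline in the Y273F line, 0 of the 79 members had an unadjusted p under 0.05, beside 215 of all genes (1.65%), and the median log2 fold change of the members was -0.05 (all genes 0.01). In the WT line these were 0 members, 118 genes (0.904%) and a median of -0.007 (all genes -0.002). The difference of the doxycycline effects, Y273F minus WT, gave 1 member, 160 genes (1.23%) and a median of -0.06 (all genes 0.02). Y273F control against WT control gave 2 members, 445 genes (3.41%) and a median of 0.01 (all genes -0.03). The 3 libraries of both groups did not overlap in 6 members with higher and 8 with lower values with doxycycline in the Y273F line (5.46% of all genes each way). In the WT line 1 member was wholly higher (1.56% of all genes) and 0 wholly lower (1.63%), and between the controls 8 were wholly higher in Y273F (5.62%) and 2 wholly lower (5.24%). The DESeq2 Wald test and limma-voom also passed 0 members in the 4 comparisons. The DESeq2 test passed 2 other genes in the comparison of the control groups.

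The member with the lowest p in the test of the difference was NDUFS1, the large iron-sulfur subunit of complex I (chr2:206114817-206159444 on GRCh38.p14). It had 60.8, 78.6 and 75.1 CPM in Y273F doxycycline libraries, against 88.7, 86.7 and 79.2 CPM in Y273F control libraries. In the WT line it had 77.1, 81.9 and 76.2 CPM with doxycycline, against 75, 60.5 and 70.6 CPM in controls. In both lines the groups did not overlap, with the doxycycline libraries lower in Y273F and higher in WT. The difference of the effects was -0.43 on the log2 scale (SE 0.18, 95% interval -0.82 to -0.04), with an unadjusted p of 0.0347 and an edgeR adjusted p of 0.9999. Without libraries 2, 6 and 10 it was -0.27, with an unadjusted p of 0.104. Between the control groups the log2 fold change of NDUFS1, Y273F over WT, was 0.30 (SE 0.13, unadjusted p = 0.036, edgeR adjusted p = 0.9914).

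NDUFB7, a subunit of the proton-pumping membrane arm of complex I (chr19:14566078-14572066), had 49.4, 40.2 and 74.7 CPM in Y273F control libraries, against 101.3, 76.1 and 141.7 CPM in WT control libraries. The control groups did not overlap, and the log2 fold change was -0.95 (SE 0.41, unadjusted p = 0.0387, edgeR adjusted p = 0.9914). Over the single-library omissions this value ran from -1.24 to -0.68. SDHB, the iron-sulfur subunit of complex II, averaged 84.7 ± 13.5 CPM in Y273F doxycycline and 93.6 ± 5.5 CPM in Y273F control libraries (SD, n = 3 each). In the WT line it averaged 96.0 ± 9.1 CPM with doxycycline and 81.7 ± 10.1 CPM in controls (SD, n = 3 each). The groups overlapped in Y273F and in WT. NDUFA8, an accessory subunit of complex I, averaged 162.2 ± 3.6 CPM in Y273F doxycycline and 134.2 ± 10.5 CPM in Y273F control libraries (SD, n = 3 each). Its log2 fold change was 0.27 (SE 0.13, edgeR adjusted p = 0.9898). NDUFB6, another membrane-arm subunit of complex I, had a log2 fold change of -0.25 (SE 0.15, edgeR adjusted p = 0.9898) in the same comparison.

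Each complex was summarised by its level, the mean over its tested genes of log2 CPM relative to the gene's own mean over the 12 libraries. For all 79 genes the level was -0.15, 0.02 and 0.04 in Y273F doxycycline libraries, against -0.004, 0.04 and 0.05 in Y273F control libraries. It was -0.14, 0.05 and 0.09 in WT doxycycline libraries, against -0.11, 0.02 and 0.09 in WT control libraries, lowest to highest. In each of the 3 groups that hold one, the lowest library was 2, 6 or 10. The only group without one, Y273F control, had the narrowest range. The within-group SD of this level was 0.097 when libraries were grouped by title and 0.023 when they were grouped by set. The second value is a description, since the sets were recognised from these expression data.

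**Figure D1:**
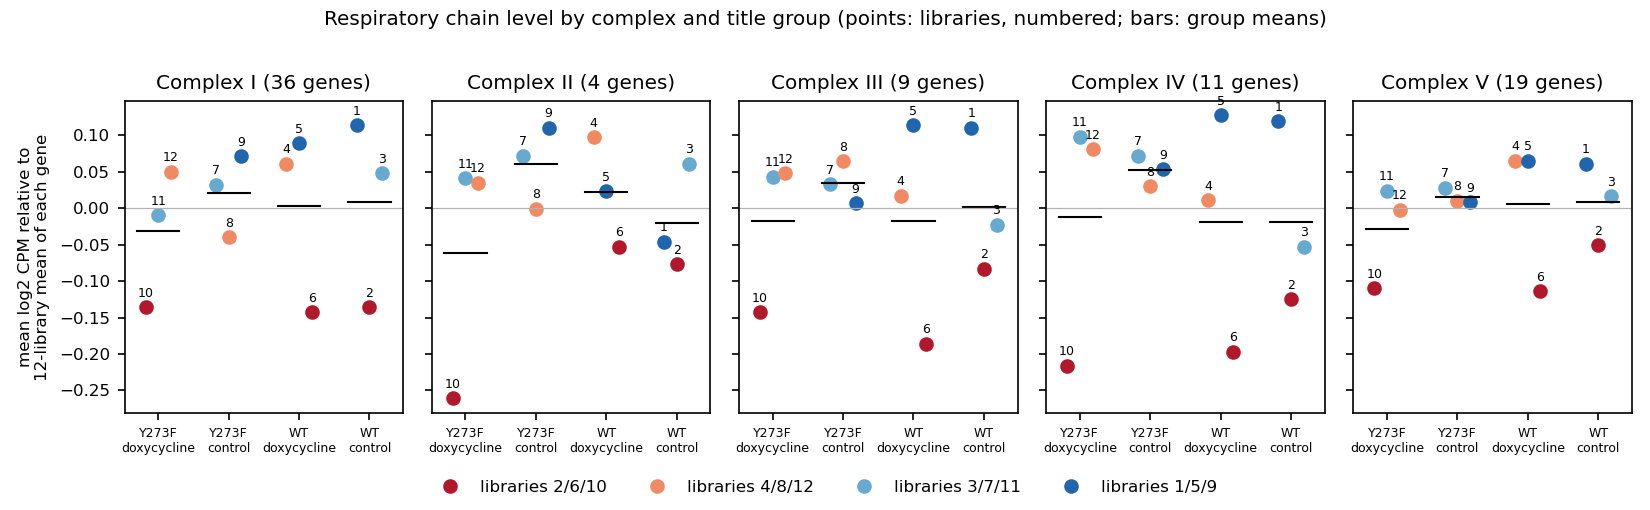
Level of each complex (vertical axis, mean log2 CPM of its tested genes relative to each gene's 12-library mean) in the 12 libraries, arranged by title group and coloured by library set; numbers are library numbers and bars group means. Libraries 2, 6 and 10 lie lowest in their groups in each panel, with the smallest gap in complex II of WT control, where library 2 is at -0.08 and library 1 at -0.05.

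Most members varied less than the median gene, in a comparison not matched for expression level. The SD of log2 CPM over the 12 libraries had a median of 0.15 for the 79 members (range 0.049 to 0.869), against 0.303 for all genes tested. By complex the median SD was 0.166 for complex I, 0.164 for II, 0.178 for III, 0.149 for IV and 0.122 for V. The lowest SD belonged to NDUFB9, an accessory subunit of complex I, and the highest to NDUFA7, which had about 1 CPM. UQCRB, a subunit of complex III that binds ubiquinone, had the highest level with a mean of 1208 CPM (lowest library 981, highest 1486). Next were the catalytic beta subunit of the ATP synthase, ATP5F1B, with a mean of 978 CPM and ATP5F1E, the epsilon subunit of its central stalk, with a mean of 840 CPM. In complex I, NDUFA4 (mean 748 CPM) and NDUFA1 (mean 674 CPM) led. NDUFA4 is counted here by its symbol, although RefSeq lists it as COXFA4 because its product is a subunit of complex IV. In complex IV, COX4I1 (mean 708 CPM), the largest nuclear-encoded subunit, and COX7C (mean 701 CPM) led, and in complex II SDHC (mean 134 CPM) and SDHA (mean 104 CPM).

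At the other end, tissue-restricted isoforms of complex IV were at or near 0. COX4I2, COX6A2, COX7A1 and COX7B2 had 0 counts in all libraries, where 3 counts in a library correspond to 0.134 to 1.07 CPM. COX8C had 4 counts in all and COX6B2, known from testis, 26 counts. NDUFA4L2, a hypoxia-induced relative of NDUFA4, had 34 counts, at most 0.996 CPM. Their ubiquitous partners were abundant. COX6A1 had a mean of 469 CPM, COX7A2 lay between 258 and 385 CPM, and COX8A between 292 and 471 CPM. COX6B1 had a mean of 341 CPM, COX7B of 676 CPM and COX7A2L, which helps to join complexes III and IV, of 156 CPM. A further 3 low genes belong to complex I: NDUFV2, a core iron-sulfur subunit, had 83 counts in all, NDUFA7 had 113 and NDUFA13 had 116. In the GENCODE 29 annotation these 3 genes share 28.4%, 32.3% and 21.0% of their exonic bases with another gene on the same strand, and reads that overlap 2 genes are left out by this kind of counting. NDUFB8 (33.8%) and COX8A (34.5%) had similar shares and high counts. These shares are over all exonic bases of a gene and not over the 3′ end that QuantSeq reads. The part of shared exons in the low counts was not tested. UQCRHL, a copy of UQCRH that lacks introns, held 1.43% to 2.38% of the UQCRH count, and ATP5MGL 1.80% to 3.31% of the ATP5MG count. Reads of such near-identical copies may be assigned to either, so both are uncertain. The 8 genes that failed the filter were COX4I2, COX6A2, COX6B2, COX7A1, COX7B2, COX8C, NDUFA4L2 and NDUFV2.

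By library set, most respiratory chain genes were lower in libraries 2, 6 and 10. Against libraries 1, 5 and 9 the difference of mean log2 CPM was negative for 68 of 79 members, with a median of -0.22, where the median of all genes tested was -0.02. For 41 members all 3 libraries of the set lay below those of 1/5/9, where 27.6% of all genes did, and for 1 member they lay above, where 27.7% of all genes did. Against libraries 4, 8 and 12 the median was -0.18 (all genes 0.004), with 34 members below (23.1% of all genes) and 3 above (25.0% of all genes). These 2 comparisons share libraries 2, 6 and 10. For 24 members libraries 2, 6 and 10 were below each of the other 9 (16.3% of all genes), and 1 member was above them (18.8% of all genes). In RNA from many cells, fewer cells of a type and less RNA per cell cannot be told apart.

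**Figure D2:**
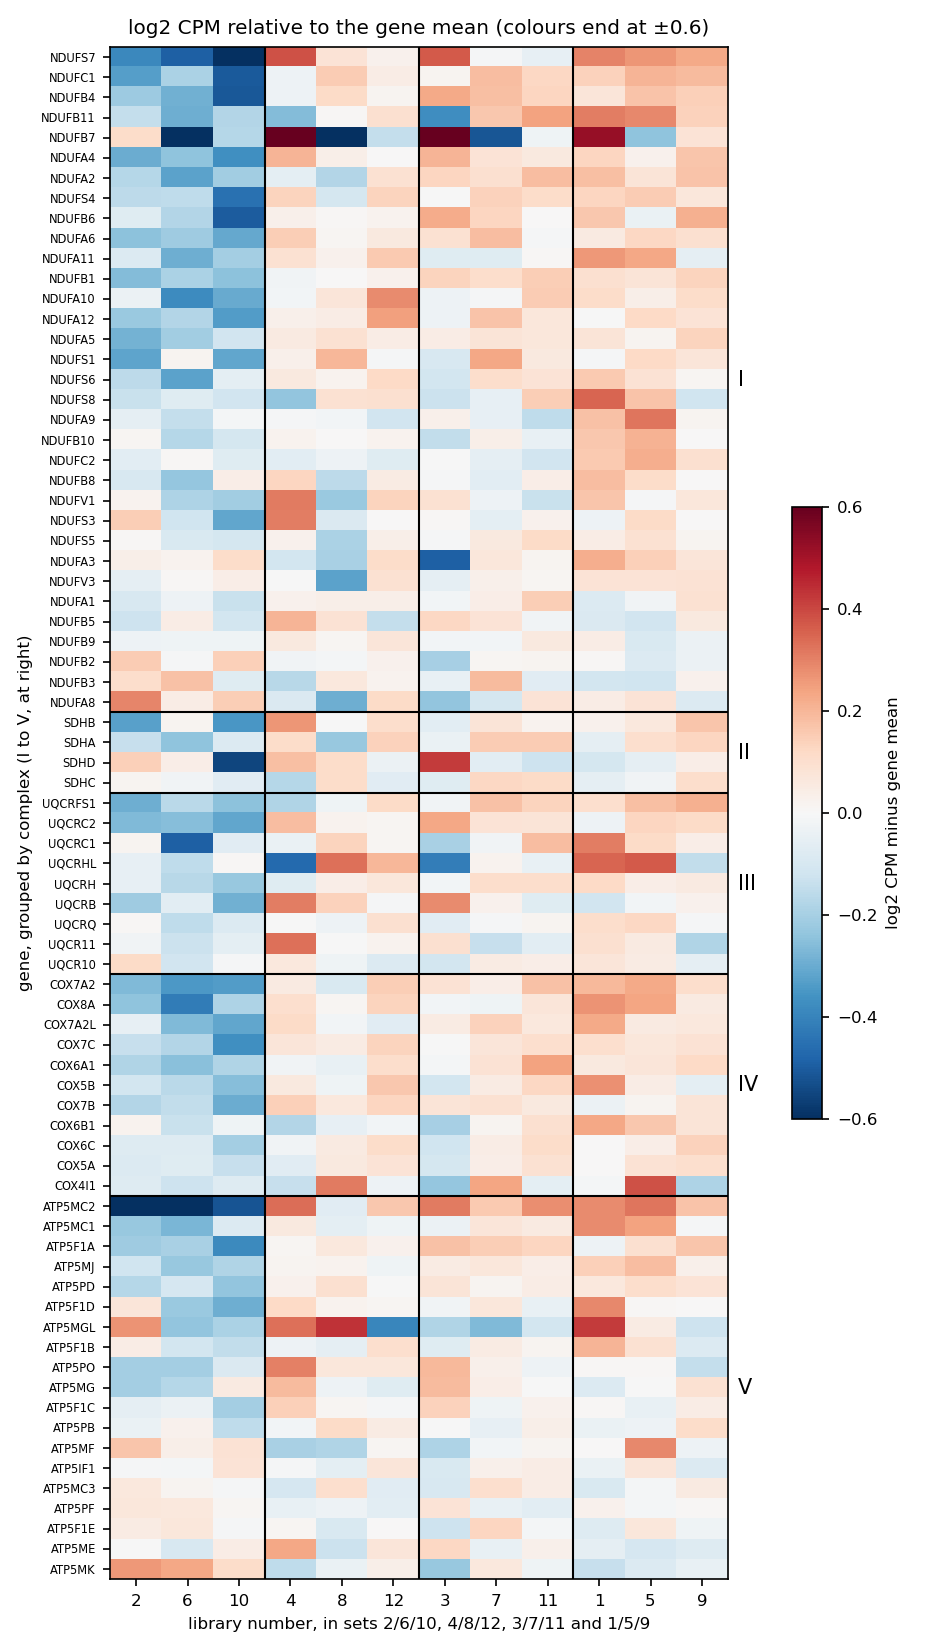
Log2 CPM of 76 members relative to the gene mean (colour, ending at ±0.6), one row per gene and one column per library, grouped by complex and by library set; members with a mean of 3 CPM or less and 1 other member are not drawn. Most rows are blue in libraries 2, 6 and 10, with ATP5MK as the reverse, and the NDUFB7 row is darkest red in libraries 3 and 4.

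The other sets had member medians near 0 against each other. Libraries 4, 8 and 12 minus 3, 7 and 11 had a member median of 0.002, with 5 members below (8.50% of all genes) and 1 above (8.98% of all genes). The 5 were NDUFA2 (difference -0.18), NDUFB4 (-0.15), NDUFB1 (-0.13), ATP5F1A (-0.12) and ATP5MJ (-0.05), and the 1 above was NDUFA11 (0.14), all on the log2 CPM scale. Libraries 3, 7 and 11 minus 1, 5 and 9 had a member median of -0.03, with 4 below (9.98% of all genes) and 1 above (9.67% of all genes). The 4 were NDUFA13, at about 1 CPM, NDUFA3 (-0.28), NDUFC2 (-0.21) and NDUFV3 (-0.09), and ATP5ME (0.12) was above. NDUFA3 had 58.6 CPM in library 3 and 72.1 to 95.9 CPM in the others, and its difference was -0.10 without libraries 3 and 4. These small counts moved when single libraries were left out, as given in the closing section.

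**Figure D3:**
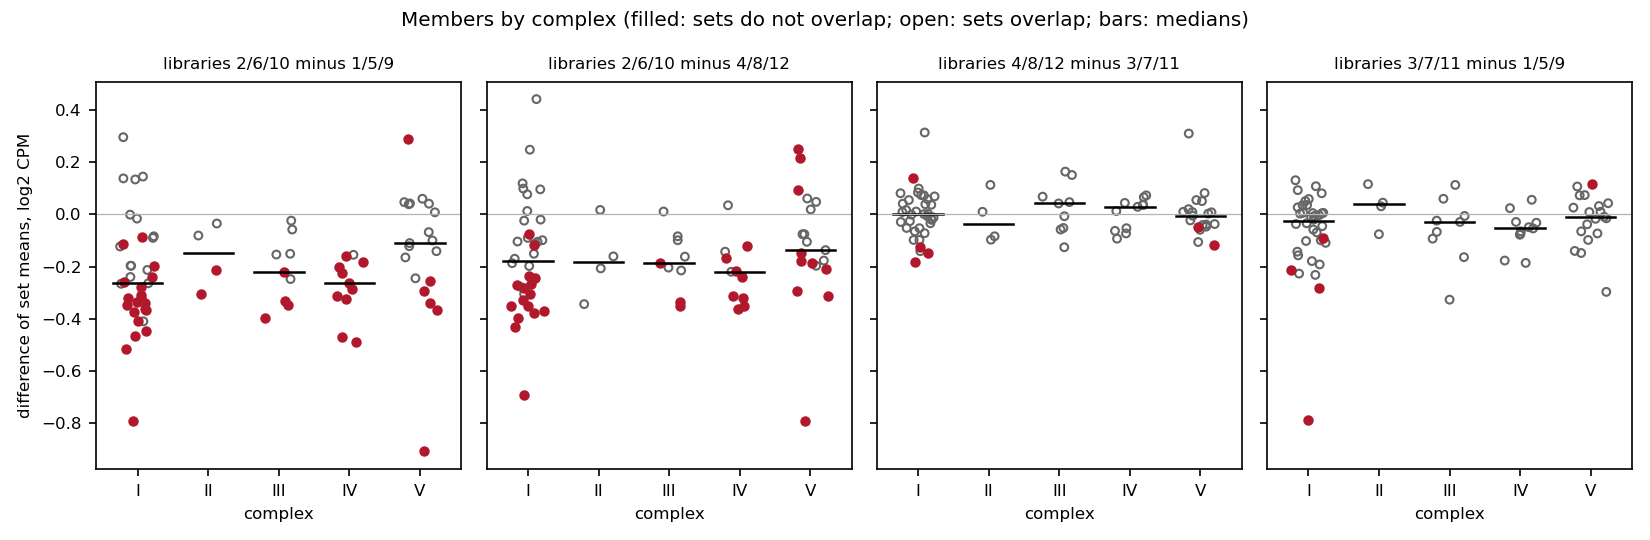
Difference of mean log2 CPM between library sets (vertical axis) for each tested member by complex, in 4 comparisons of sets; filled points are members whose 3 libraries lay wholly above or below the other 3, open points overlap, and bars are medians. The 2 panels with libraries 2, 6 and 10 have their medians below 0 in each complex (for example -0.26 in complex IV against 1/5/9), and the other 2 panels have theirs near 0.

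In complex I, 20 of 36 tested genes were below libraries 1, 5 and 9 in libraries 2, 6 and 10 (27.6% of all genes) and 0 above (27.7% of all genes), with a median of -0.26. The lowest was NDUFS7, a core subunit that holds the last iron-sulfur cluster before ubiquinone (chr19:1383907-1395584). It had 19.4, 18.1 and 15.4 CPM in libraries 2, 6 and 10, against 33.2, 26.9 and 25.9 CPM in 4, 8 and 12, 32.8, 25.3 and 24.6 CPM in 3, 7 and 11, and 31.3, 30.6 and 29.8 CPM in 1, 5 and 9. No library of the first set reached any of the other 9, and the log2 difference from 1/5/9 was -0.79. NDUFC1, a small accessory subunit, had 126.0, 139.1 and 112.0 CPM in libraries 2, 6 and 10, against 174.6, 182.6 and 181.1 CPM in 1, 5 and 9, a log2 difference of -0.52. Of the core flavin and iron-sulfur subunits, all 6 tested had negative differences (median -0.25), 2 of them without overlap. Of the NDUFB subunits, 9 of 11 were negative (median -0.21), 4 without overlap. Both of these counts without overlap are close to the 27.6% of all genes. NDUFA4 was at 604.0, 628.3 and 575.2 CPM in libraries 2, 6 and 10, against 810.6, 756.1 and 831.8 CPM in 1, 5 and 9.

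Complex II, which also serves the tricarboxylic acid cycle, had all 4 differences negative (median -0.15), 2 of them without overlap (27.6% of all genes were below). SDHA, its flavin subunit, had 93.6, 87.2 and 97.4 CPM in libraries 2, 6 and 10, against 99.3, 110.7 and 113.0 CPM in 1, 5 and 9, without overlap. SDHB also had no overlap there (log2 difference -0.31) but overlapped with libraries 4, 8 and 12. SDHD, a membrane anchor, varied most in this complex, with an SD of 0.229 in log2 CPM, 26.8 CPM in library 10 and 52.6 CPM in library 3.

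In complex III, 9 of 9 differences were negative and 4 genes did not overlap (27.6% of all genes were below), with a median of -0.22. The Rieske iron-sulfur protein, UQCRFS1, had the largest difference (-0.40). UQCRB, at 1034, 1148 and 981 CPM in libraries 2, 6 and 10, against 1108, 1186 and 1221 CPM in 1, 5 and 9, overlapped with that set and lay below 4/8/12 without overlap.

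In complex IV nearly every gene was lower. All 11 tested genes had negative differences from 1/5/9, 10 of them without overlap (27.6% of all genes were below), and the median was -0.26. COX7A2 had 273.2, 258.3 and 260.2 CPM in libraries 2, 6 and 10, against 376.1, 384.5 and 352.9 CPM in 1, 5 and 9, a log2 difference of -0.49. COX8A, a small membrane subunit, had 330.1, 292 and 342.9 CPM in libraries 2, 6 and 10, against 470.6, 459.6 and 405.4 CPM in 1, 5 and 9, a log2 difference of -0.47. The 1 gene that overlapped was COX4I1. It was highest in libraries 5, 7 and 8, with 915.5, 827.9 and 871.8 CPM, and lay between 598.2 and 694.8 CPM in the other 9, so its pattern followed neither the sets nor the titles.

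Complex V had the widest range of differences from 1/5/9, -0.91 to 0.29, with a median of -0.11. In it 5 of 19 genes were below, a share close to the 27.6% of all genes, and 1 was above. The proton-driven ring of the ATP synthase is made of subunit c, which 3 genes encode with the same mature protein but different import sequences. ATP5MC2 (chr12:53665170-53681423) had 282.6, 279.1 and 323.2 CPM in libraries 2, 6 and 10, against 582.8, 440.7 and 517.4 CPM in 4, 8 and 12, 574.3, 515.5 and 560.0 CPM in 3, 7 and 11, and 561.6, 577.1 and 520.9 CPM in 1, 5 and 9. The first set was thus far below all other libraries, and the log2 differences of -0.91 from 1/5/9 and -0.79 from 4/8/12 were the lowest among the members in those comparisons. ATP5MC1 was lower by a smaller margin (log2 difference from 1/5/9 -0.37, no overlap), while ATP5MC3 overlapped (0.04).

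As a share of the counts of the 3 genes, ATP5MC2 took 26.2% to 28.5% in libraries 2, 6 and 10, 34.1% to 41.5% in 4, 8 and 12, 36.7% to 41.8% in 3, 7 and 11, and 38.0% to 38.9% in 1, 5 and 9. Exact Clopper-Pearson 95% intervals of these shares were 1.0 to 3.4 percentage points wide and cover counting error only. ATP5MC3 took 38.3% to 42.3% in libraries 2, 6 and 10 and 28.9% to 36.2% in 4, 8 and 12, against 28.1% to 33.0% in 1, 5 and 9. The largest of the 3 shares was thus that of ATP5MC3 in libraries 2, 6 and 10 and that of ATP5MC2 in the other libraries except library 8, where ATP5MC3 had 36.2% and ATP5MC2 34.1%.

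ATP5MK, a small subunit found where ATP synthase pairs meet (chr10:103389050-103396475), was the 1 member above all other libraries. It had 536.0, 525.7 and 482.1 CPM in libraries 2, 6 and 10, against 402.9, 435.1 and 458.6 CPM in 4, 8 and 12, 382.1, 467.9 and 440.0 CPM in 3, 7 and 11, and 406.2, 422.6 and 434.0 CPM in 1, 5 and 9. The log2 difference from 1/5/9 was 0.29. ATP5MF and ATP5PF, a membrane and a peripheral stalk subunit, were also above 4/8/12, by 0.22 and 0.09 on the log2 scale, and overlapped with 1/5/9. ATP5IF1, the inhibitor that blocks ATP hydrolysis by the enzyme, had 253.5 to 286.0 CPM over all 12 libraries, with an SD of 0.061 in log2 CPM.

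**Figure D4:**
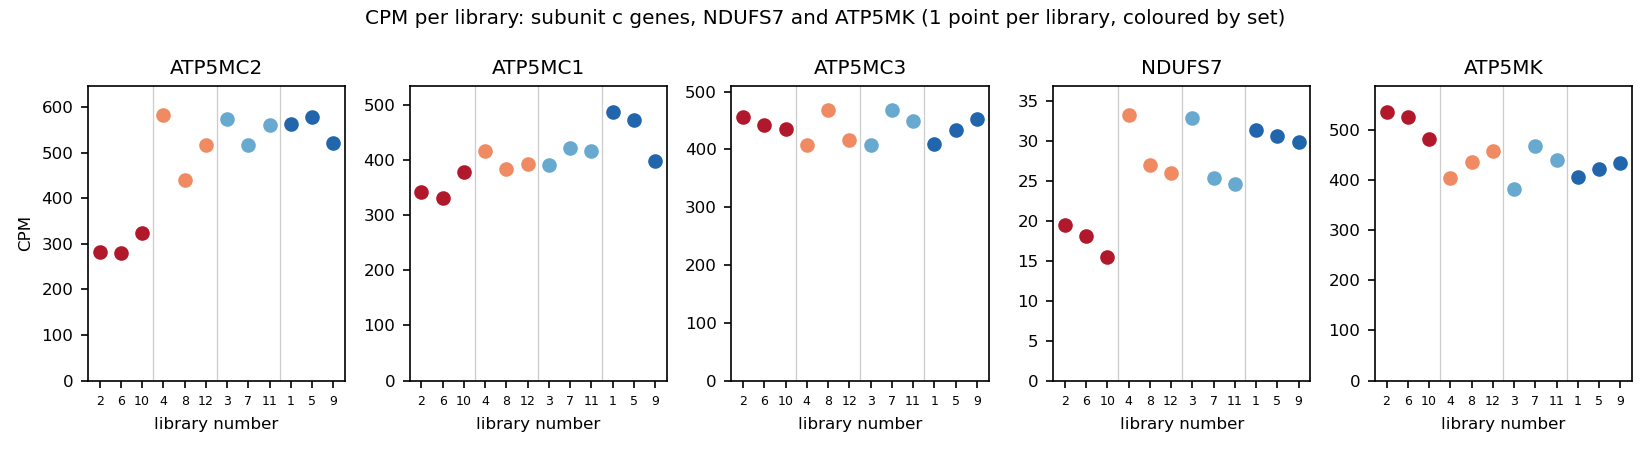
CPM (vertical axis, from 0) of the 3 subunit c genes, NDUFS7 and ATP5MK in each library, 1 point per library, ordered and coloured by set. ATP5MC2 lies between 279.1 and 323.2 CPM in libraries 2, 6 and 10 and at 440.7 CPM or more elsewhere, while ATP5MC3 stays between 406.8 and 468.7 CPM in all 12.

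The promoter sequences of ATP5MC2, NDUFS7 and ATP5MK, the members at both ends of this pattern, and of the complex IV gene COX8A are shown as examples with matches to motifs known from respiratory chain genes. NDUFC1 and COX7A2, which lay between NDUFS7 and COX8A in their difference from 1/5/9, had no match to the NRF1 core or the GABP motif in such a window and are not shown. They are the 250 bases before the start of the gene on GRCh38.p14, from RefSeq, 5′ to 3′ on the strand of the gene, with matches to the NRF1 core and the GABP motif in capitals and all other letters, matches to further motifs included, in lower case. ATP5MC2 (chr12:53676084-53676333, minus strand, the first listed of several starts) and NDUFS7 (chr19:1383657-1383906, plus strand) hold the NRF1 core CGCATGCG, beginning 41 and 74 bases before the start. ATP5MK (chr10:103396476-103396725, minus strand) holds 2 overlapping matches to the GABP motif CCGGAAG, on opposite strands, and COX8A (chr11:63974370-63974619, plus strand) holds 1, read on the other strand.
ATP5MC2: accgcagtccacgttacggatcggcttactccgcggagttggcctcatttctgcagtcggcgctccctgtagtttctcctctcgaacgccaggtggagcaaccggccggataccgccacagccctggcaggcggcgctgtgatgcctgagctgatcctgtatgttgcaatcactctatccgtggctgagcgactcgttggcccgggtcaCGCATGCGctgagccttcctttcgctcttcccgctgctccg
NDUFS7: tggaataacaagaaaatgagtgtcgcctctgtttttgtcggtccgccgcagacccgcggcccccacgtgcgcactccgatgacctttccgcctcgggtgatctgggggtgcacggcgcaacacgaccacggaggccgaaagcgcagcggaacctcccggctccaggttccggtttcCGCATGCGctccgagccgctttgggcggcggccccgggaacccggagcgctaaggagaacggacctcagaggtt
ATP5MK: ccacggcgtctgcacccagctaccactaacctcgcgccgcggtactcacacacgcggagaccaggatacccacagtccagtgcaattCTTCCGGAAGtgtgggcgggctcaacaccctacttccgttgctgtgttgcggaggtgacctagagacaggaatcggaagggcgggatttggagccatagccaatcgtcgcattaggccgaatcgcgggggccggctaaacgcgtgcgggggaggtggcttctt
COX8A: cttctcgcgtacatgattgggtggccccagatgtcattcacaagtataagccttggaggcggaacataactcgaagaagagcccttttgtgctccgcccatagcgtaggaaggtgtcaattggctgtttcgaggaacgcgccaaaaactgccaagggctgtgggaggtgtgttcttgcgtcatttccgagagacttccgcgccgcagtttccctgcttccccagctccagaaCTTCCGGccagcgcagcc

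Motifs were searched on both strands in the window from 250 bases before to 50 bases after the start, which 71 of the 87 members and 27305 genes in all had. The longer NRF1 motif, GCGCA and GCGC with any base between them, was in 23.9% of the members with a window, against 6.98% of all genes, and the core CGCATGCG, which may overlap it, in 15.5%, against 2.46%. The GABP motif was in 29.6%, against 12.2%, the YY1 motif AAGATGGC in 16.9%, against 3.52%, and the CREB motif TGACGTCA in 7.04%, against 2.25%. The SP1 motif GGGCGG was in 62.0%, against 48.3%, and the NF-Y motif CCAAT in 36.6%, against 39.7%. Among members below 1/5/9 in libraries 2, 6 and 10, 21.6% of the 37 with a window held the longer NRF1 motif, against 28.6% of the other 28 tested. For GABP these shares were 21.6% and 46.4%, and for NF-Y 45.9% and 21.4%. A match is a run of letters and not a site at which a factor was measured.

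Some members set apart 2 libraries of different sets and title groups. Of those named below, NDUFA4, NDUFS7 and UQCRC2 also had libraries 2, 6 and 10 below all others, and ATP5MK had them above. Libraries 3 and 4, labelled WT control 3 and WT doxycycline 1, were the 2 highest of 12 in 12 members (5.07% of all genes), a pattern noticed after the values were seen. Among them were NDUFA4, NDUFB5, NDUFB7 and NDUFS7 of complex I, SDHD, UQCRB and UQCRC2, and ATP5F1C, ATP5ME, ATP5MG and ATP5PO of complex V. NDUFB7 had 141.7 and 141.1 CPM in libraries 3 and 4 and 40.2 to 101.3 CPM in the other 10. Libraries 3 and 4 thus lay clear of the rest in this gene. They were the 2 lowest of 12 in 6 members (4.26% of all genes), namely UQCRHL, SDHC, ATP5MC3, ATP5MF, ATP5MK and COX6B1. Counts of the mitochondrial genome moved with these libraries, at 5.87% of the total in library 3 and 6.43% in library 4, within 3.52% to 6.43% over all 12. Their part in the result was not tested.

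**Figure D5:**
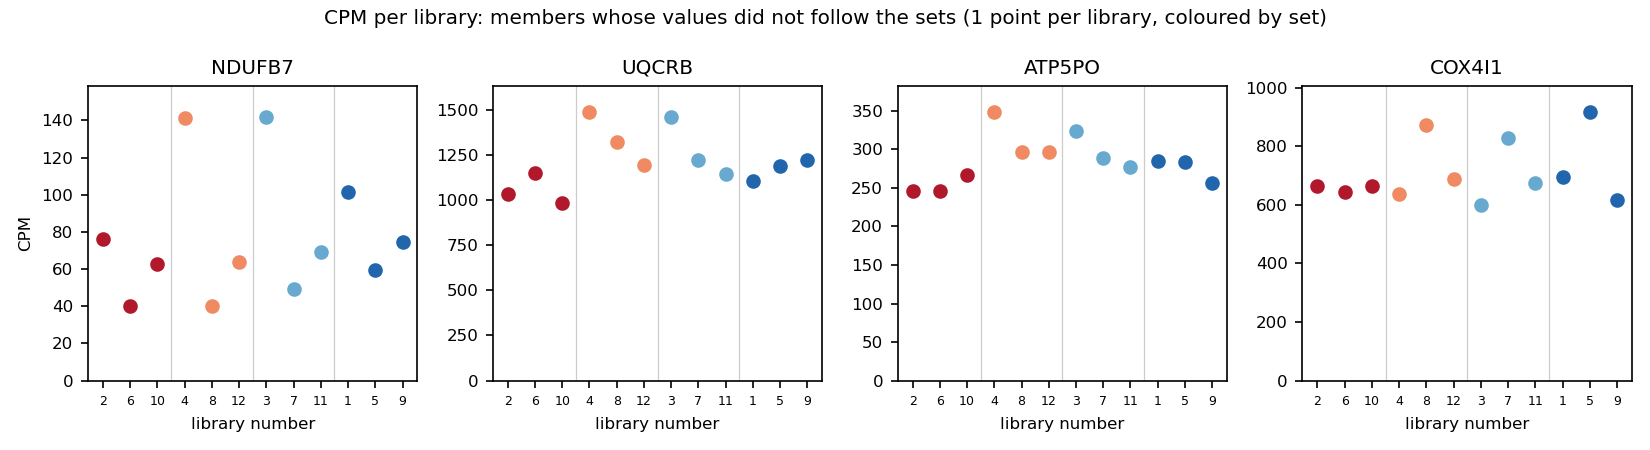
CPM (vertical axis, from 0) of 4 members in each library, 1 point per library, ordered and coloured by library set. NDUFB7, UQCRB and ATP5PO peak in libraries 3 and 4, and COX4I1 peaks in libraries 5, 7 and 8.

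Other mitochondrial genes were followed by list. In libraries 2, 6 and 10 against 1, 5 and 9, 30 of 62 assembly factors of the respiratory chain were below and 9 above (median -0.20), where 27.6% of all genes were below and 27.7% above. The same shares of all genes stand beside the next 2 lists. FOXRED1 and ECSIT, both needed to assemble complex I, had the lowest differences without overlap, at -1.13 and -0.92, and the complex IV factor COX16 had -0.85. The chain components outside the symbol rule, such as CYC1, cytochrome c and the ubiquinone synthesis enzymes, had 8 of 13 below and 0 above (median -0.42). COQ7, a hydroxylase of ubiquinone synthesis, had 12.8, 13.5 and 6.08 CPM in libraries 2, 6 and 10, against 23.3, 28.3 and 23.9 CPM in 1, 5 and 9. Of the mitochondrial ribosomal proteins, 31 of 75 were below and 4 above (median -0.19), MRPL48 having the lowest difference without overlap (-0.996).

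The mitochondrially encoded subunits went the other way against 1/5/9, with 0 of 13 below (27.6% of all genes), 9 above (27.7% of all genes) and a median of 0.44. MT-ND6, a complex I subunit encoded on the opposite strand to the others, had 47.7, 47.2 and 43.3 CPM in libraries 2, 6 and 10, against 13.6, 16.5 and 22.3 CPM in 1, 5 and 9. Against libraries 4, 8 and 12 their median was 0.004, with 1 of 13 above (25.0% of all genes) and 0 below (23.1% of all genes). In libraries 2, 6 and 10 the nuclear and mitochondrial subunits thus differed in opposite directions from 1/5/9. From 4/8/12 the nuclear median was -0.18 and the mitochondrial one 0.004. Libraries 3, 7 and 11 also had higher means than 1, 5 and 9 in 13 of 13 mitochondrial subunits, with a median of 0.22. Of these, 0 were without overlap (9.67% of all genes were above). Higher mitochondrial values than in 1/5/9 were therefore not particular to libraries 2, 6 and 10.

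Among 19 regulators of mitochondrial biogenesis, 5 were below and 3 above (median -0.09), where 27.6% of all genes were below and 27.7% above, so the share below was near that of all genes. PPARGC1B, a coactivator, was higher by 1.09 and the mitochondrial RNA polymerase POLRMT lower by 0.66 on the log2 scale, both without overlap, and TFB1M, a mitochondrial rRNA methyltransferase, had a difference of -0.51. Of the tricarboxylic acid cycle enzymes 4 of 13 were below and 3 above (median -0.05), shares near the 27.6% and 27.7% of all genes. OGDH was higher (0.48) and IDH3G lower (-0.52) on the log2 scale, both without overlap. By the titles, 0 genes of these 6 lists passed the edgeR test in any comparison. The most genes of a list with an unadjusted edgeR p under 0.05 was 3. These were of the 13 mitochondrially encoded subunits in Y273F control against WT control, where 3.41% of all genes had such a p. The median log2 fold change of these 13 was -0.38 there, with 11 negative and 2 positive.

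Several other measures moved with libraries 2, 6 and 10. CDKN1A, the p21 cell cycle inhibitor, had 255.9, 275.6 and 242.7 CPM there, against 43.1 to 63.4 CPM in the other 9. MKI67, a marker of cycling cells, had 128.7, 152.1 and 178.2 CPM there, against 185.4 to 253.1 CPM in the other 9. Summed fibroblast markers lay between 147.7 and 212.0 CPM there, 30.5 and 32.2 CPM in 4, 8 and 12, 14.5 and 16.2 CPM in 3, 7 and 11, and 20.3 and 24.1 CPM in 1, 5 and 9. COL1A1 made up most of this sum, with 197.1, 135.8 and 162.8 CPM in libraries 2, 6 and 10, and COL1A2 was at most 0.358 CPM in every library. Libraries 2, 6 and 10 held 4469706, 7167086 and 2783265 counts, each below the median depth of the 12. Libraries 4, 8 and 11 were also below that median. Libraries 1, 5 and 9 held 8731527, 9502510 and 22028624 counts, each more than any of libraries 2, 6 and 10. The part of these measures in the lower respiratory chain levels was not tested.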

How the data were processed

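Per the labels' protocols, column-purified RNA entered the QuantSeq FWD V2 kit. The submitters' processing notes name STAR and GRCh38.p14. No source used here gives the STAR version, the annotation release or whether molecular identifiers were used. The values deposited by the authors are read counts in whole numbers, for each library and merged. All 87 members equalled the transcript-strand counts of the per-library files. Reads assigned to no gene, 35.5% to 43.2% of a library, were left out of totals. A repeated symbol occurred in 1212 rows of the merged table, none of them a member.

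Counts were scaled with TMM factors and given as CPM. The quasi-likelihood test of edgeR 4.0.16 (R 4.3.3) was run on genes that passed filterByExpr at a minimum count of 10, over all 12 libraries with a mean for each title group, passing at a Benjamini-Hochberg adjusted p under 0.05. Log2 CPM used a prior count of 2. The fit was tested on simulated counts in which libraries of a title group did not differ by set. That check therefore cannot show what the title comparisons could find in these data. Replicates were separate populations grown in parallel, and p-values were set by the spread between libraries of a title group. That spread includes the differences between library sets, because each title group mixes them. Library depth of 2783265 to 22028624 counts sets the precision, and intervals of shares cover counting error only. The main fit used no pairing by title replicate number, and the expression values could not decide whether there was one. Library sets were compared by values, without a test.

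The alternatives were DESeq2 1.42.0 size factors and Wald test, limma-voom (limma 3.58.1), library totals without TMM, a minimum count of 50 or no filter, a prior count of 0.5, unstranded counts, all genes of the per-library files, no mitochondrially encoded genes, fits of the compared groups alone, a replicate block, and omission of single libraries or of 2, 6 and 10. Omission of 3 and 4 was added after the data were seen. Members and gene lists were chosen with earlier results of these data known. Named members were, by rule, the 3 with the lowest p in each title comparison, the 2 highest and the most variable in each complex, up to 5 per direction in each comparison of sets, the isoform families, ATP5IF1 and the genes that failed the filter, and up to 3 genes of each other list; others were chosen after their values were seen. Coordinates are RefSeq genes on GRCh38.p14. RefSeq symbols matched 85 members and synonyms the other 2. Some genes that meet the naming rule are not reported here.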

Additional observations from a re-analysis of the deposited data

Results flagged for a closer look

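One value, the CPM of NDUFS1, drew a closer look among 54 values checked. Its doxycycline and control libraries did not overlap in either line, and the direction was opposite between the lines. In the Y273F line its 3 doxycycline libraries (60.8, 78.6 and 75.1 CPM) were below the 3 controls (88.7, 86.7 and 79.2 CPM). In the WT line the 3 doxycycline libraries (77.1, 81.9 and 76.2 CPM) were above the 3 controls (75, 60.5 and 70.6 CPM). The doxycycline effect in Y273F minus that in WT was -23.1 CPM. The difference on the CPM scale was not tested itself. On the log2 scale edgeR's interaction term was -0.43, with an unadjusted p of 0.0347 and an adjusted p of 0.9999. It was -0.27 without libraries 2, 6 and 10, of which library 2 was the lowest WT control (60.5 CPM) and library 10 the lowest Y273F doxycycline library (60.8 CPM).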

How the results depend on the processing

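Under the alternatives that were run, 0 members passed, 478 summary values stayed within their margin and 47 moved past it. Member medians near 0 changed sign: -0.063 to 0.017 for doxycycline in Y273F, -0.019 to 0.026 in WT, -0.027 to 0.037 between controls and -0.027 to 0.005 for 4/8/12 minus 3/7/11. With library totals only, 3 members were below in 4/8/12 minus 3/7/11 and 7 in 3/7/11 minus 1/5/9. The DESeq2 Wald test passed 2 genes in Y273F control against WT control. With unstranded counts, 3 members were above in 2/6/10 minus 1/5/9 and 0 in 3/7/11 minus 1/5/9. NDUFS7 moved to -1.33 there, since its count without strand was 141 in all instead of 2661. Without libraries 3 and 4, 4/8/12 minus 3/7/11 had a median of -0.027 with 20 members below and 7 above, and 3/7/11 minus 1/5/9 had 9 below and 5 above. A comparison of 3 against 2 libraries, or 2 against 2, leaves more genes without overlap by construction.

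When each library was left out in turn, genes passing edgeR ran from 0 to 1 in the Y273F line, in the difference and between controls, and from 0 to 0 in the WT line. The 1 appeared without Y273F control 2, Y273F doxycycline 2 or Y273F doxycycline 3. The member median ran from -0.097 to 0.017 in the Y273F line, -0.051 to 0.072 in the WT line, -0.132 to 0.009 for the difference and -0.026 to 0.081 between controls. For 2/6/10 minus 1/5/9 the median ran from -0.259 to -0.197, with 41 to 51 members below and 1 to 4 above. For 2/6/10 minus 4/8/12 it ran from -0.209 to -0.168, with 33 to 43 below and 3 to 6 above. For 4/8/12 minus 3/7/11 it ran from -0.027 to 0.008, with 5 to 14 below (14 without WT control 3, 10 without WT doxycycline 1) and 1 to 7 above (7 without Y273F control 2). For 3/7/11 minus 1/5/9 it ran from -0.049 to -0.013, with 4 to 19 below (19 without Y273F control 3, 14 without Y273F doxycycline 2) and 1 to 7 above (7 without Y273F control 3).

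With the replicate number as a block, 0 genes passed in the 4 comparisons and the member medians were -0.05 in Y273F, -0.007 in WT, -0.06 for the difference and 0.011 between controls. Same-numbered libraries of different groups correlated between -0.685 and 0.575 in their deviations from the group means, over 0.1 in 3 of 18 pairs. These deviations carry the differences between library sets, so they cannot decide whether the numbers pair the samples. Other scalings moved the median of all genes by at most 0.019. Depth limits the members near 1 CPM, NDUFA7 and NDUFA13, and those at 0.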
